A study of Xenopus tropicalis with 13 samples.

Results

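A set of 100 genes had at least 1 segment listed as raised in gastrula embryos of Xenopus tropicalis injected with a Taf15 morpholino and none listed for the corresponding neurula embryos. These were the genes with a bin in the deposited stage 10 table and no bin in the deposited stage 15 table, after 2 genes, id3 and sfrp2, were left out by name. They carried 105 of the 228 bins listed at stage 10, and they were 100 of the 192 genes listed there and of the 1148 genes listed at either stage. A bin is a stretch of a gene that is counted on its own, and its usage is its share of the signal of that gene. The members were chosen by the deposited calls of the same comparison, so that a higher usage in MO-injected embryos is what put a bin on the list. Usage is a share, and a bin can be listed without a clearly higher count. The counts are not independent of these calls and are described here without a test.

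The study sequenced RNA of whole embryos of this frog, each library made from 1 embryo. There were 3 MO-injected and 3 uninjected embryos at stage 10, when gastrulation begins, and 3 MO-injected and 4 uninjected embryos at stage 15, when the neural plate is folding. A morpholino (MO) is a synthetic antisense oligomer that blocks translation or splicing of its target RNA. The titles of the 3 MO-injected embryos at stage 10 also carry the term trns1, whose meaning was not resolved here. Their labels name no further treatment, and the controls received no injection. An effect of Taf15 loss and an effect of injecting an oligomer therefore cannot be told apart in these tables. The strain and the age in hours were not in the labels, and no row for taf15 was analysed here, so that no check of the knockdown is given.

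Taf15 belongs to the FET family of RNA-binding proteins, which bind nascent transcripts and are known for roles in transcription and splicing. In the frog the early embryo runs on maternal RNA until zygotic transcription begins at the midblastula transition, shortly before gastrulation. A raised bin inside a gene can hold an exon, a piece of an untranslated end or an intron that stays in the RNA, and the bin tables do not say which of these a bin is. Where a gene is short of reads, a bin's count can move by a few reads with a large ratio.

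The tables held bins with an adjusted p under 0.1 and a change of usage of 2-fold or more, and usage was raised in all of them. From the deposited p-values at least about 162381 bins were tested at stage 10, of which 0.14% were listed, and at least about 192075 at stage 15, of which 0.744% were listed. A gene absent from the stage 15 list was therefore not shown to be unchanged at stage 15. The library totals were not in the tables used here, the depth of each embryo is unknown, and all ratios of raw counts given below are uncorrected for it. The count columns are numbered within each group, and a number names no particular embryo of the labels. In bulk RNA from whole embryos, fewer cells that make a transcript and less of it in each cell cannot be told apart.

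The 105 bins together held 2267, 3236 and 1943 reads in the 3 MO-injected embryos, against 292, 291 and 353 reads in the 3 uninjected embryos. All 105 bins had more reads in the MO-injected group than in the uninjected group, and in 100 of them, or 95.2%, the lowest MO-injected embryo lay above the highest uninjected embryo. The same held for 222 of all 228 stage 10 bins, or 97.4%, and for 120 of the 121 bins of genes listed at both stages, or 99.2%, so that the share among the members was near that of the list as a whole. Groups apart is thus the usual state of a listed bin. Where it is given for single genes below, it does not set them off from the rest. The second MO-injected column was the highest of its group in 56 bins, the first in 26 and the third in 17. Most of the bins were thin: the mean raw count over the 6 embryos had a median of 5.17 and was under 10 in 81 bins. An uninjected embryo had a median of 1 read per bin, and each of the 3 had no read at all in 48 or 49 of the bins, whereas only 1 bin lacked a read in 1 of the MO-injected embryos.

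The log2 ratio of mean raw counts (MO-injected over uninjected, with 0.5 added to each mean) had a median of 2.90 over the 105 bins and ranged between 0.43 and 5.98. With the uninjected group set to a floor of 3 counts in the 27 bins that had no read in any uninjected embryo, the median was 2.65. The change in usage in the authors' deposited table had a median of 1.62 on the log2 scale. In 76 of the 78 bins with a read in the uninjected group the raw ratio was the larger of the pair, and in all 27 silent bins the deposited usage ratio was the larger, up to 12.7 on the log2 scale for adhfe1, whose bin held 6, 2 and 1 reads in MO-injected embryos. A fitted ratio against a group with no read is no measure of size.

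**Figure D1:**
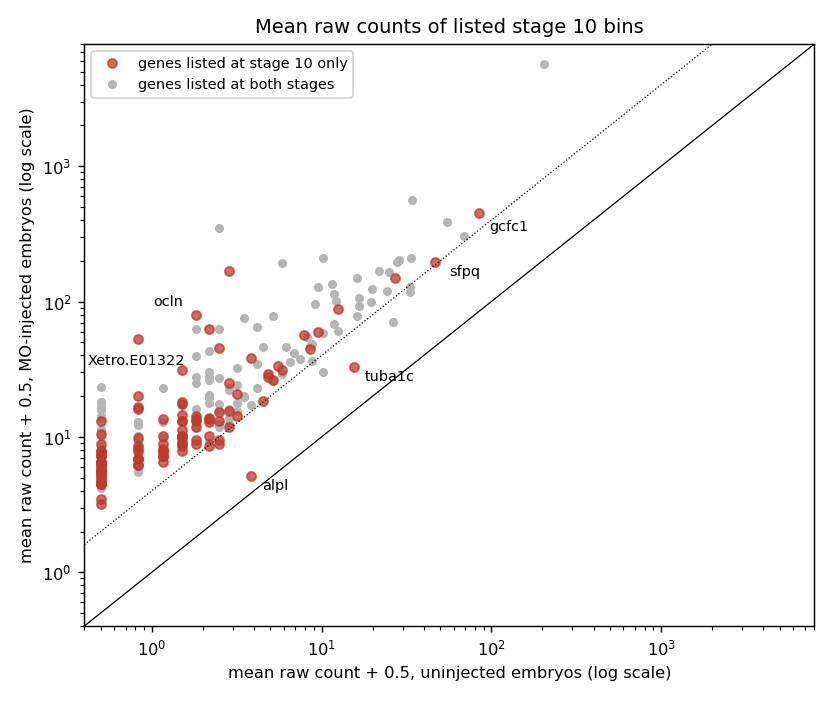
Mean raw count of each listed stage 10 bin plus 0.5 in MO-injected embryos (vertical, log scale) against uninjected embryos (horizontal, log scale); red points are the 105 bins of genes listed at stage 10 only and grey points the 121 bins of genes listed at both stages. The solid line marks equal counts and the dotted line a 4-fold higher count in MO-injected embryos; alpl and tuba1c lie closest to equality, and most red points lie at low counts.

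The bins of the 90 genes listed at both stages were more deeply covered. Their 121 stage 10 bins had a median mean count of 12, with 52 under 10, against the median of 5.17 and 81 under 10 for the 105 bins described here. When the stage 10 bins were ranked by adjusted p in the authors' deposited table, 2 of the first 20 belonged to the stage 10 only genes, and 10 of the first 50 did. Past an adjusted p of 0.01 were 35 of the 105 bins, against 91 of the 121 bins of genes listed at both stages. The median log2 ratio of raw counts was 2.90 against 3.08. The listed bins of the stage 10 only genes thus had lower counts and larger adjusted p-values than the 121 bins. Those 121 bins came from 90 genes, some with several bins, and the read depth of whole genes was not compared. The part of bin depth in the absence of the stage 10 only genes from the stage 15 list was not tested.

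At the edge of the rule, the authors' deposited table gave the largest adjusted p of any member bin for tsc1 (0.0960), the unnamed gene Xetro.E00146 (0.0950) and hgf (0.0948). On the other side, the genes listed at both stages whose leading stage 15 bin had the largest adjusted p were nfs1 (0.0793), smurf2 (0.0740) and cecr2 (0.0682), again in the authors' deposited table. Single stage 15 bins of afap1 and Xetro.G01392 had larger values, but both genes had another bin with a smaller one. The stage 15 bin of nfs1, a cysteine desulfurase, held 3, 1 and 3 reads in MO-injected embryos at stage 15, against 0 in each of the 4 uninjected embryos. At stage 10 a different bin of nfs1 held 47, 64 and 64 reads in MO-injected embryos, against 6, 16 and 7 in uninjected embryos.

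Bin widths spanned a single base to several kilobases. The narrowest were 1 base and the widest 5567 bases, with a median of 198 and quartiles of 68 and 685. There were 45 bins under 150 bases, 27 of 150 bases or more but under 600 and 33 of 600 bases or more. For the genes listed at both stages the median was 271 bases, with 40, 47 and 34 bins in the same classes. The share of bins under 50 bases was 20% against 12.4%, and that of bins over 1000 bases was 17.1% against 18.2%. A bin was assigned to a single assembled transcript in 57 of 105 cases, or 54.3%, against 85 of 121 cases, or 70.2%, in genes listed at both stages.

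**Figure D2:**
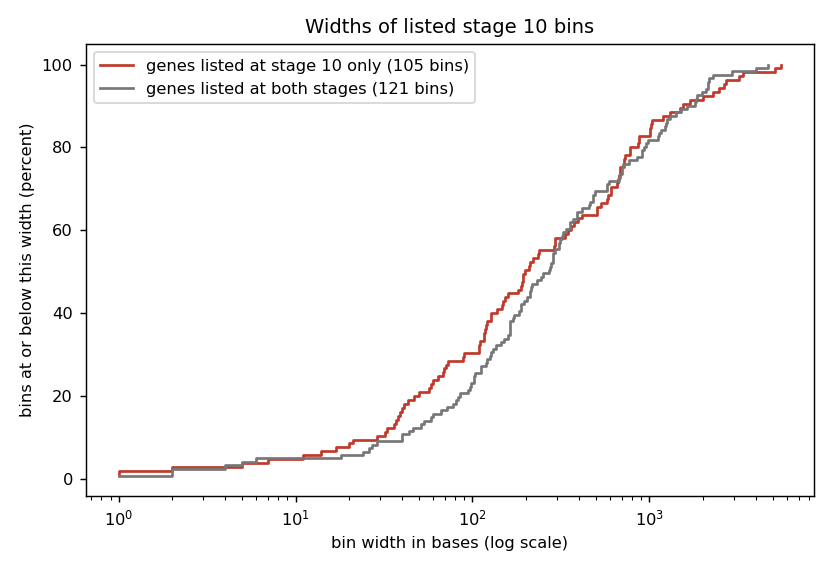
Cumulative share of listed stage 10 bins (vertical, percent) by bin width in bases (horizontal, log scale), for genes listed at stage 10 only (red, 105 bins) and at both stages (grey, 121 bins). The red curve lies above the grey one over most widths up to the red median of 198 bases and the curves meet among the longer bins.

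Width went with depth in part. The 24 bins with a mean raw count of 10 or more had a median width of 597 bases, while the 27 bins with no read in an uninjected embryo had a median width of 109 bases. There were exceptions in both directions. The bin of smarce1 was a single base (scaffold_10, position 32568539, minus strand; genome build: not given in the sources used here). It held 46, 63 and 25 reads in MO-injected embryos, against 2, 0 and 4 in uninjected embryos. The 5156-base bin of ift57 held 5, 4 and 4 reads in MO-injected embryos and none in uninjected embryos. Reads are longer than the narrowest bins, so that a count of such a bin is a count of reads that touch it and extend into its neighbours.

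**Figure D3:**
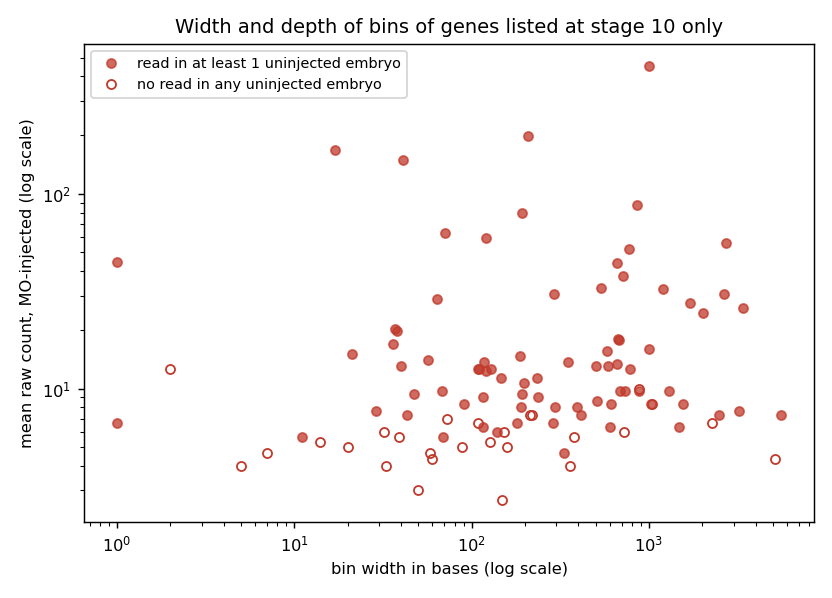
Mean raw count in the 3 MO-injected embryos (vertical, log scale) against bin width in bases (horizontal, log scale) for the 105 bins of genes listed at stage 10 only; filled points had a read in at least 1 uninjected embryo and the 27 open points had none. The open points lie low at all widths, and bins under 50 bases include some of the deepest.

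Genes of RNA synthesis, processing and ribosome building made up 10 of the members, with 11 bins. The most deeply read was sfpq, a splicing factor and paraspeckle protein of the nucleus, with 2 bins on the plus strand of scaffold_2. The bin at 5305223 to 5305431 (209 bases) held 213, 213 and 165 reads in MO-injected embryos, against 14, 52 and 72 in uninjected embryos. The bin at 5307775 to 5307815 (41 bases), which lies 2343 bases further along, held 201, 129 and 117 reads, against 12, 38 and 30 in uninjected embryos. All MO-injected embryos were above all uninjected embryos in both bins, and in both the first uninjected column was the lowest. The log2 ratio of raw counts was 2.09 and 2.46, between 1.66 and 2.56 for the wider bin and between 2.12 and 2.80 for the narrower one when any 1 embryo was left out.

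The other bins of this class held fewer reads. The bin of rrp9, a protein of the U3 small nucleolar ribonucleoprotein, held 34, 40 and 25 reads in MO-injected embryos, against 7, 2 and 6 in uninjected embryos. For aqr, an intron-binding helicase of the spliceosome, a 37-base bin held 22, 15 and 24 reads, against 2, 2 and 4 in uninjected embryos. The zinc-knuckle gene zcchc17 had 14, 26 and 13 reads in MO-injected embryos, against 0, 2 and 1 in uninjected embryos. In each of these 3 genes the groups were apart, as in 100 of the 105 bins of the whole set. The raw ratio was 6.60 for rrp9, 7.62 for aqr and 17.7 for zcchc17 (95% exact counting intervals 3.81 to 12.2, 3.64 to 18.5 and 5.73 to 88.4, which cover counting error only). The log2 ratio of zcchc17, 3.60, lay between 3.18 and 4.18 with any 1 embryo left out, and was highest without the second uninjected column. Reads were few for ppp1r10, a nuclear targeting subunit of protein phosphatase 1, with 21, 8 and 9 in MO-injected embryos against 2, 0 and 1 in uninjected embryos. They were also few for supt5h, an elongation factor of RNA polymerase II, with 13, 8 and 8 against 0, 1 and 2 in uninjected embryos, and for ngdn, a ribosome assembly protein, with 11, 8 and 7 against 2, 1 and 0. The single-base bin of zcchc8, a subunit of the nuclear exosome targeting complex, held 6, 9 and 5 reads in MO-injected embryos and 0, 2 and 0 in uninjected embryos. Neither znhit6, an assembly factor of small nucleolar ribonucleoproteins whose bin was 7 bases wide, nor tdrkh, a Tudor protein of the piRNA pathway, had a read in an uninjected embryo. In this class 7 of 11 bins were under 150 bases and 1 was 600 bases or more.

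Genes placed under chromatin and transcription numbered 13, each with 1 bin. This class was drawn broadly and took in the DNA glycosylase gene ogg1 and the arginine methyltransferase gene prmt3. All 13 bins were past an adjusted p of 0.05 in the authors' deposited table, against 70 of the 105 bins in the whole set. A mean raw count of 10 or more was reached by 5 bins of this class, against 24 of the 105. The median of the mean count was close to that of the whole set, at 5.5 against 5.17. The RNA class had 4 of 11 bins at 10 or more and a median of 6.83, so that such bins were not particular to this class. The bins were listed by adjusted p and the class was assigned by hand, so that these differences are described and were not tested. The highest count of the whole set was that of gcfc1, a homologue of a GC-rich sequence binding factor. Its bin of 1003 bases, on the plus strand of scaffold_2 from 128356287 to 128357289, held 346, 689 and 328 reads in MO-injected embryos, against 97, 69 and 85 in uninjected embryos. The second MO-injected column was about the sum of the other 2, and each of the 3 lay above every uninjected embryo. The log2 ratio of raw counts was 2.43, or between 2.0 and 2.62 with any 1 embryo left out, whereas the usage change in the authors' deposited table was 1.01 with an adjusted p of 1.48e-28. The authors' deposited table of retained introns, which covers the 10 leading named genes at stage 10, lists gcfc1 with 1 retained intron, and it was the only member in that table.

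Next to gcfc1 in this class stood smarce1, a subunit of the SWI/SNF remodelling complex, whose single-base bin was given above, and the zinc-finger gene znf628. The bin of znf628 was 2726 bases wide and held 55, 53 and 59 reads in MO-injected embryos, against 7, 7 and 8 in uninjected embryos. Its counts were even within both groups, and its log2 ratio of 2.84 stayed between 2.80 and 2.90 whichever embryo was left out. For mycn, a proto-oncogene transcription factor of proliferating progenitors, a 1692-base bin held 26, 37 and 19 reads, against 7, 6 and 0 in uninjected embryos. For setd8, the histone H4 lysine methyltransferase also called kmt5a, 33, 121 and 24 reads stood against 11, 9 and 7 in uninjected embryos. Here 1 embryo carried most of the reads, and the log2 ratio of 2.65 was 1.61 without the second MO-injected column.

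Thinner bins in this class belonged to maml1, a coactivator of Notch signalling, with 9, 16 and 12 reads in MO-injected embryos against 1, 1 and 3 in uninjected embryos, and to the heterochromatin protein gene cbx1, with 10, 6 and 8 against 1, 0 and 0. The blood and neural transcription factor gene runx1 had 4, 17 and 7 reads in MO-injected embryos, against 0, 0 and 1 in uninjected embryos. For the DNA glycosylase gene ogg1 the counts were 12, 9 and 8 in MO-injected embryos and 0, 2 and 1 in uninjected embryos. These 4 pairs of groups did not overlap, as in 100 of the 105 bins of the whole set. The bin of l3mbtl1, a reader of methylated histones, was silent in uninjected embryos and held 12, 17 and 1 reads in MO-injected embryos, and that of the zinc-finger gene znf131 was silent likewise, with 3, 7 and 5 reads. The nuclear receptor gene rorb.2 had 7, 12 and 8 reads, against 0, 2 and 4 in uninjected embryos. The arginine methyltransferase gene prmt3 had 4, 11 and 10 reads, against 0, 4 and 2 in uninjected embryos, and was the one gene of this class whose groups met, at 4 reads.

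**Figure D4:**
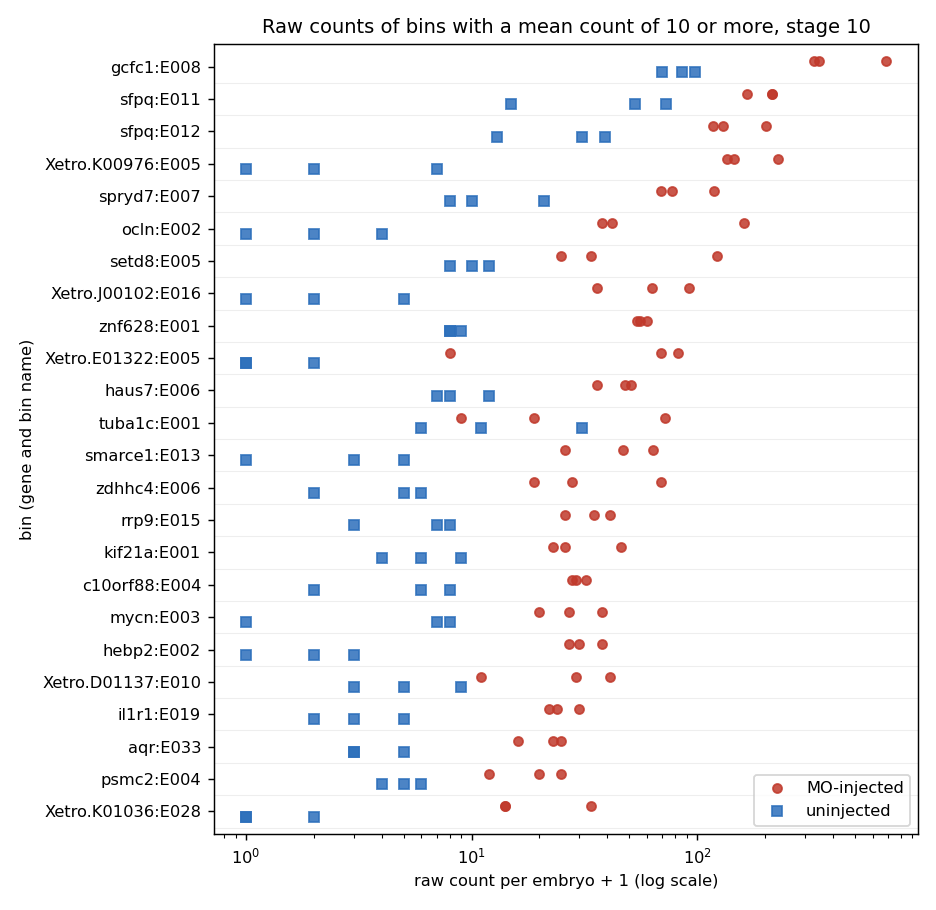
Raw count plus 1 per embryo (horizontal, log scale) of the 24 bins with a mean raw count of 10 or more, ordered by mean count with the highest on top; red circles are the 3 MO-injected embryos and blue squares the 3 uninjected embryos of stage 10. In 23 of the 24 bins every red circle lies to the right of every blue square, and the exception is tuba1c.

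Signalling genes numbered 14, and 7 of their 14 bins had no read in any uninjected embryo, against 27 of the 105 bins in the whole set. These bins were thin, with a median mean count of 3.67 against 5.17 for the 105 bins, and 13 of the 14 were under 10. All 27 silent bins had a mean count under 10, and the part of coverage in the silent share was not tested. Among ligands, the bin of hgf, which encodes the ligand of the Met receptor, held 5, 7 and 5 reads in MO-injected embryos and that of gdf10, a ligand of the TGF-beta superfamily, held 3, 11 and 1, both against no read in uninjected embryos. Among receptors and channels, the interleukin-1 receptor gene il1r1 had the deepest bin of the class, 2005 bases wide, with 29, 23 and 21 reads against 1, 2 and 4 in uninjected embryos. The semaphorin co-receptor gene nrp2 had 14 reads in each MO-injected embryo, against 0, 2 and 1 in uninjected embryos. For kcnn2, a calcium-activated potassium channel gene, 12, 9 and 17 reads stood against 1, 2 and 0. All 5 of these bins had groups apart, as had 100 of the 105 bins in the whole set.

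Of the intracellular regulators, gsk3b, the kinase that marks beta-catenin for destruction in the Wnt pathway, had 7, 5 and 10 reads in MO-injected embryos against 1, 0 and 0 in uninjected embryos. The 21-base bin of tsc1, an inhibitor of the growth kinase mTOR, had 17, 14 and 14 reads against 2, 3 and 2 in uninjected embryos. For gatsl3, also known as castor1, an arginine sensor upstream of mTOR in human cells, the counts were 16, 20 and 4 in MO-injected embryos and 2, 0 and 3 in uninjected embryos. With so few reads the raw ratio of gsk3b was 22.0 with a 95% exact counting interval of 3.56 to 908, while that of tsc1 was 6.43 with an interval of 2.88 to 16.9. The log2 ratio of gsk3b, 3.23, lay between 2.96 and 3.97 with any 1 embryo left out. It was highest without the first uninjected column, which held the only read of that group. The kinase gene prkx, the Ras exchange factor gene rasgef1a, the Ras-association gene rassf2, the GTPase-activating gene arhgap4 and the Rab GTPase-activating gene rabgap1l had no read in an uninjected embryo. With the uninjected group set to 3 counts, their raw ratios were between 6 and 7. These values leave out the counting error of the MO-injected embryos and are not comparable with the limits of the exact intervals. The GTPase-activating gene gmip had 4, 15 and 3 reads in MO-injected embryos, against 1, 1 and 0 in uninjected embryos.

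Genes of the cytoskeleton, cilia and cell surface numbered 13, with 14 bins, of which 2 were under 150 bases. The bin of ocln, the tight junction protein occludin, held 41, 160 and 37 reads in MO-injected embryos, against 3, 1 and 0 in uninjected embryos. Its log2 ratio of raw counts was 5.44 and was 4.43 without the second MO-injected column, which held most of the reads, and 6.32 without the first uninjected column. For haus7, a subunit of the augmin complex that nucleates spindle microtubules, 50, 47 and 35 reads stood against 6, 7 and 11 in uninjected embryos. For kif21a, a kinesin of axons, 45, 25 and 22 reads stood against 5, 8 and 3. Both genes were even across embryos compared with ocln, at log2 ratios of 2.39 for haus7 and 2.42 for kif21a.

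The alpha-tubulin gene tuba1c departed from the rest. Its bin of 1196 bases held 18, 71 and 8 reads in MO-injected embryos, against 30, 5 and 10 in uninjected embryos, and the groups overlapped. The log2 ratio of raw counts was 1.08, and it was -0.20 without the second MO-injected column and 2.04 without the first uninjected column. The value is uncertain, since its sign changed with 1 embryo left out. Alpha-tubulin genes are closely related copies, and whether reads were split between them was not tested. Counts were low in sned1, an extracellular matrix gene, odz2, a teneurin, the mucin gene muc4, the formin gene fmn1, the ciliary genes iqce and ift57, and the actin-associated genes fam101b and ipp. The bins of these genes held up to 15 reads in an MO-injected embryo, for odz2, and up to 2 reads in an uninjected embryo. The 2 bins of sned1 lay 180 bases apart and held 6, 10 and 4 and 6, 9 and 5 reads in MO-injected embryos, against 0, 1 and 1 and 2, 0 and 0 in uninjected embryos.

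Genes placed under metabolism and transport numbered 12, and 11 of their bins had a mean count under 10. The exception was hebp2, a heme-binding protein gene, with 37, 26 and 29 reads in MO-injected embryos against 1, 2 and 0 in uninjected embryos, a raw ratio of 30.7 with a 95% exact counting interval of 10.2 to 151. On the log2 scale its ratio was 4.38, and between 3.96 and 4.96 with any 1 embryo left out. It was highest without the second uninjected column. For mthfd2, the mitochondrial folate enzyme, 8, 14 and 6 reads stood against 1 in each uninjected embryo. The folate gene aldh1l1, the epoxide hydrolase gene ephx1 and adhfe1, a mitochondrial dehydrogenase gene, were silent in uninjected embryos. The kynurenine aminotransferase gene ccbl1 had 9, 21 and 14 reads in MO-injected embryos, against 3, 3 and 0 in uninjected embryos. The others were the pantothenate kinase gene pank1, the amino acid transporter gene slc38a5, acbd4, ebpl, ogfod2 and alpl. In all of these but alpl the groups were apart, with 4 to 28 reads in an MO-injected embryo and at most 2 in an uninjected embryo.

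Protein turnover, folding and trafficking genes numbered 11. Proteasome genes were represented by psmc2, a base subunit, with 19, 11 and 24 reads in MO-injected embryos against 3, 4 and 5 in uninjected embryos, by psmg1, an assembly chaperone, with 12, 18 and 11 against 1, 4 and 3, and by psma5, a core subunit, with 5, 13 and 5 against 0, 1 and 1. The groups of all 3 were apart, as in 100 of the 105 bins of the whole set. The palmitoyltransferase gene zdhhc4 had 27, 68 and 18 reads in MO-injected embryos, against 5, 1 and 4 in uninjected embryos. The bin of chmp4c, an ESCRT-III protein of membrane scission, held 7, 13 and 5 reads and that of sdccag3, an endosomal protein gene, 3, 5 and 7, and neither had a read in uninjected embryos. The widest bin of all, 5567 bases in the ubiquitin ligase adaptor gene klhl24, held 8, 6 and 8 reads in MO-injected embryos, against 2, 0 and 1 in uninjected embryos. The sorting receptor gene sorcs3 had 0, 31 and 10 reads, against 2, 0 and 2 in uninjected embryos, and its groups overlapped. Its log2 ratio of 2.95 was 1.58 without the second MO-injected column. The other genes were c12orf44, an autophagy factor also called atg101, apba3, an adaptor protein gene, and sep15, a selenoprotein of the endoplasmic reticulum, with at most 12 reads in an embryo.

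The remaining 27 genes were not assigned to a class. They included 19 that the tables name only by identifiers of the form Xetro, for which no symbol was found, and tmem41a, spryd7, lrrc9, lrrc14, c2cd2l, taz, c10orf88 and c16orf59. The smallest adjusted p of any member in the authors' deposited table, 3.74e-48, belonged to one of them, Xetro.K00976. Its bin of 17 bases on scaffold_65, from 31081 to 31097, held 144, 228 and 134 reads in MO-injected embryos, against 0, 1 and 6 in uninjected embryos. The raw log2 ratio was 5.90, and 7.40 without the third uninjected column, which held most of the reads of its group. A bin of 2 bases that abuts it held 13, 18 and 7 reads in MO-injected embryos and none in uninjected embryos. In Xetro.K01036 a pair of abutting bins of 40 and 38 bases held 6, 21 and 12 and 13, 13 and 33 reads, against 1, 1 and 0 and 1, 0 and 0 in uninjected embryos. Abutting bins can share reads and are not separate evidence. The only named gene of this group with more than 100 reads in an embryo was spryd7, with 68, 118 and 76 reads in MO-injected embryos against 7, 9 and 20 in uninjected embryos.

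In 5 bins the groups touched or overlapped, namely those of prmt3, alpl, tuba1c, sorcs3 and Xetro.F01868. The bin of Xetro.F01868 held 11, 1 and 13 reads in MO-injected embryos, against 1, 0 and 1 in uninjected embryos. That of alpl, tissue-nonspecific alkaline phosphatase, held 3, 9 and 2 reads in MO-injected embryos, against 6, 2 and 2 in uninjected embryos, a raw log2 ratio of 0.43 that was -0.35 without the second MO-injected column and 1.05 without the first uninjected column. In the authors' deposited table the level of alpl as a whole was lower in MO-injected embryos, at a log2 fold change of -3.0 (SE 0.322), while the usage of this bin was higher by 1.77 on the log2 scale. It was the only member bin with a raw ratio under 2-fold.

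Level and bin usage were listed together for few members. The expression tables name no direction, and a positive value was read as higher in MO-injected embryos from the raw bin ratios of the same genes. In the authors' deposited expression table of stage 10, 3 of the 100 members were listed, 1 higher and 2 lower, against 2.18% of the at least about 13372 genes tested, 0.95% higher and 1.23% lower. Besides alpl, the authors' deposited table listed prmt3 at -1.24 on the log2 scale (SE 0.268; adjusted p = 0.000936). It also listed Xetro.E01322 at 2.33 on that scale in the authors' deposited table (SE 0.496; adjusted p = 0.000747). The bin of Xetro.E01322 held 7, 68 and 81 reads in MO-injected embryos, against 1, 0 and 0 in uninjected embryos. So 2 of the 3 fell in level while the listed bin gained usage, and 1 rose in both. At stage 15, 15 of the 100 members were listed for level, 10 higher and 5 lower, against 13.2% of the at least about 15917 genes tested, 5.93% higher and 7.22% lower. The share of members listed at stage 15 was near that of all genes.

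The same direction held at both stages for each of the 3 genes listed at both. In the authors' deposited tables, Xetro.E01322 stood at a log2 fold change of 2.33 at stage 10 and of 4.03 (SE 0.454) at stage 15, prmt3 at -1.24 and -1.44 (SE 0.253), and alpl at -3.0 and -1.78 (SE 0.280). The stages share no embryos. Of the 12 listed at stage 15 alone, the largest rise among named genes was that of gmip, at 2.95 (SE 1.2) in the authors' deposited table, on a mean normalised count of 10.7. Next in size, per the authors' deposited table, came zdhhc4 (2.81, SE 0.381), acbd4 (1.82, SE 0.415), l3mbtl1 (1.77, SE 0.530) and ppp1r10 (1.70, SE 0.305). The authors' deposited table gave smaller rises for rorb.2 (1.58, SE 0.567), Xetro.K00636 (1.2, SE 0.472), taz (1.14, SE 0.233) and ogfod2 (1.0, SE 0.207). Lower at stage 15 in the authors' deposited table were mycn (-1.04, SE 0.161, adjusted p = 6.27e-09), fmn1 (-1.05, SE 0.299) and iqce (-1.38, SE 0.299). Their lack of a listed bin at stage 15 follows from how the members were chosen and is no separate result. Of the rises, those of gmip (adjusted p = 0.0599) and Xetro.K00636 (adjusted p = 0.0512) lay above 0.05 in the authors' deposited table. With a limit of 0.05, 13 members were listed for level at stage 15.

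**Figure D5:**
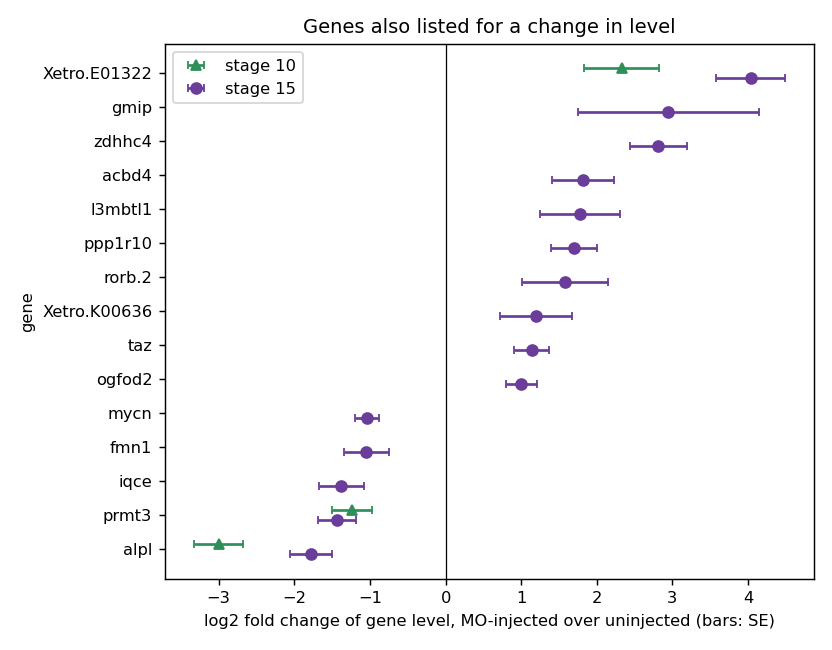
Deposited log2 fold change of gene level, MO-injected over uninjected (horizontal; bars are the deposited SE), for the 15 members listed in an expression table, at stage 10 (green triangles, 3 genes) and at stage 15 (purple circles, 15 genes). The 3 genes listed at both stages lie on the same side of 0 at each.

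Lists of general developmental and cellular genes, 949 symbols in all, held 8 of the 100 members. They held 25 of the 192 genes with a listed bin at stage 10 and 81 of the 1046 genes with one at stage 15. The lists of chromatin (smarce1 and cbx1), transcription factor (mycn), Wnt (gsk3b), Notch (maml1), splicing (sfpq), adhesion (ocln) and metabolic genes (mthfd2) each held 1 or 2 members. No member was on the lists of FGF and ERK, BMP and TGF-beta, cell division and ubiquitin genes. The lists are not complete: gdf10, haus7, klhl24 and the proteasome genes psmc2, psma5 and psmg1 are members with related functions that the lists do not hold.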

How the data were processed

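Libraries were made from RNA of single embryos with a TruSeq RNA kit at reduced reagent volumes, per the labels' protocols; TopHat, Bowtie, Cufflinks, Cuffdiff, DESeq and DESeq2 are named, without versions or roles, per the submitters' processing notes. For settings, annotation, counting method and build: not given in the sources used here. Per the file headers, each deposited bin table has raw counts for every embryo, their mean (a signal), fitted usage scores, a log2 usage ratio, p-values, adjusted p-values and bin widths. The deposited expression tables hold a mean normalised count (a signal), a log2 fold change with its SE, p-values and adjusted p-values. The deposited usage ratio has uninjected embryos on top, and it was inverted here. The expression headers name no direction, and positive was read as higher in MO-injected embryos, because the deposited fold changes rank with the raw bin ratios across genes (Spearman correlation 0.709 over 11 genes at stage 10 and 0.699 over 169 at stage 15).

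One uninjected embryo labelled stage 15 in title and stage field has stage 10 in its description; it was placed at stage 15. Stage 15 count columns carry stage 10 in their names and were used as stage 15. Members were matched on the gene field, repeated headers dropped; 1 gene field had become a date, and its row name, sep15, is printed. Of the 100 names, 70 matched a RefSeq symbol (UCB_Xtro_10.0) and 6 a synonym. The members, gene lists and function classes were chosen with earlier results of these data known; classes were assigned by hand. Roles are those known mainly from human and mouse homologues.

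No model was refitted and no test was run, since the tables hold selected rows only; adjusted p-values are the authors'. Numbers tested are lower bounds from the Benjamini-Hochberg relation of the deposited p-values. Genes were named where they had one of the 12 smallest adjusted p-values of named genes, one of the 10 highest mean counts, one of the 5 widest or 5 narrowest bins, 2 bins, a listed level, a place on a list, or one of the 3 largest adjusted p-values; others are named by class. Log2 ratios of raw counts used a pseudocount of 0.5. Intervals are exact (Clopper-Pearson, scipy 1.17.1) at 95% and cover counting error only. Floors set the uninjected group to 3 counts and leave out the counting error of the MO-injected group. Pseudocounts, a mean count of 10 or more, stricter adjusted p-values and leaving out each embryo were the alternatives. The ratio was checked on simulated counts with counting error only, for bins with a mean count of 10 or more. That check does not cover thinner bins or the spread between embryos. The bound was checked on a simulated list cut by adjusted p but not by fold. No 2 count columns were identical. The values of 1 member are not reported here.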

Additional observations from a re-analysis of the deposited data

How the results depend on the processing

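The number of members, 100, was 65 with stage 10 bins past an adjusted p of 0.05, 34 past 0.01 and 23 with a mean raw count of 10 or more; it was 107 when only stage 15 bins past 0.01 removed a gene, 100 with letter case ignored and 102 with id3 and sfrp2 kept. Bins whose groups did not overlap, 100, numbered 34 past an adjusted p of 0.01 and 23 at a mean count of 10 or more, of 35 and 24 bins left, and 100 to 102 with any 1 embryo left out. Bins without a read in uninjected embryos, 27, numbered 15 past 0.05, 5 past 0.01 and 0 at a mean count of 10 or more, and 27 to 34 with any 1 embryo left out. The median log2 ratio of raw counts, 2.90, was 3.46 with a pseudocount of 0.1 and 2.48 with 1, and 2.83 to 3.13 with any 1 embryo left out. The median width, 198 bases, was 597 at a mean count of 10 or more. Fewer bins enter the stricter settings by construction. Leaving out an embryo can only keep or raise the counts of non-overlapping and of silent bins. Those ranges are therefore no measure of stability. Of 434 recomputed ratios of 55 bins, 364 moved by less than the spread between MO-injected embryos, 68 moved by more with the same direction and 2 reversed without the second MO-injected column, alpl at -0.35 (up to 1.05 with another embryo left out) and tuba1c at -0.20 (up to 2.04). The spread was that of each bin itself, so that bins with uneven MO-injected embryos had a wider limit. The count of 364 is therefore no measure of stability. The bins of tuba1c, sorcs3 and Xetro.F01868 were added to the check of leaving out each embryo after seeing the data. No paired analysis was possible because the count columns carry no number that the labels tie to an embryo and no result comes from a test. Depth per embryo is unknown, and the 81 bins with a mean count under 10 limit what their ratios show.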

Other observations

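Some members lie near each other in the coordinates of the files, with build: not given in the sources used here. Whether they lie nearer than bins placed at random would was not tested. Listed bins of ebpl (scaffold_2, 93511884 to 93512386) and spryd7 (scaffold_2, 93561991 to 93562849), both on the minus strand, lie 49.6 kb apart. The bin of ebpl held 4, 28 and 7 reads in MO-injected embryos, against 2, 1 and 1 in uninjected embryos, and that of spryd7 held 68, 118 and 76, against 7, 9 and 20. On scaffold_1 the bins of zcchc8, ogfod2 and setd8 follow each other at gaps of 342 kb and 302 kb. In ebpl, spryd7, zcchc8, ogfod2 and setd8 the second MO-injected column was the highest, with 28, 118, 9, 16 and 121 reads. That column was the highest in 56 of the 105 bins, and in 60 of the 121 stage 10 bins of genes listed at both stages, so that its lead was not particular to these genes.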
